A study of Mus musculus with 8 samples.

Results

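Among the genes that let a macrophage clear a path through matrix and clot, 9 were followed through the first 120 min of the response to LPS: the matrix metalloproteinases Mmp9, Mmp12, Mmp13 and Mmp14, the inhibitors Timp1 and Timp2, the plasminogen activator Plau (urokinase) with its receptor Plaur, and F3 (tissue factor). They were taken by gene symbol, whatever their counts, and all 9 were among the 23141 genes of the count table once 2 in vitro spike-in transcripts were set aside. The cells were RAW264.7, an established mouse macrophage-like line, with no genetic change or second agent named in the labels. 1 library was unstimulated (0 min), and the other 7 came from cells kept in 100 ng/ml E. coli LPS for 15 min to 120 min (every 15 min up to 90 min, then 120 min), with a single library at each time point. The study used this series to follow mRNA levels closely after the stimulus.

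Urokinase, bound to its receptor on the cell surface, cuts plasminogen to plasmin, which dissolves fibrin and can cut matrix proteins and latent metalloproteinases. Metalloproteinases degrade collagens, elastin and other matrix components and are held in check by the Timp proteins. F3 is the cell surface receptor that starts clotting by binding factor VII. In macrophages these genes are known for their part in migration, matrix turnover and the link between inflammation and coagulation.

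Library totals ran from 100229997 to 159036125 counts. The precursor ribosomal RNA Rn45s took 8.18% to 9.11% of them at 0, 30, 60 and 120 min but 12.96%, 16.64%, 20.54% and 15.81% at 15, 45, 75 and 90 min. As a check of the labels, Tnf and Il1b, which LPS is known to induce, were called higher at 120 min than at 0 min, by 40.3-fold and 2808-fold. All 8 macrophage markers found in the table had counts, summing to 5739 to 6951 CPM (counts scaled to a common library total). Osteoclast markers summed to 25.5 to 53.6 CPM, neutrophil markers to 0.421 to 0.551, endothelial markers to 0.122 to 0.33, and fibroblast, epithelial and lymphocyte markers to at most 0.02 CPM. S100a9 and Camp among the neutrophil markers, Col1a1, Col1a2, Dcn and Lum among the fibroblast markers, Epcam, Krt18 and Cdh1 among the epithelial markers and Cd3g among the lymphocyte markers were at 0 in every library.

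Because each time point was a single library, every test below compares libraries and not conditions, and intervals (95%, exact) cover counting error only. A gene was called higher or lower than at 0 min when the log2 ratio of normalized counts (counts divided by a median-of-ratios size factor) passed 0.5 and the exact negative binomial test gave an unadjusted p under 0.05. In RNA from a whole culture, fewer cells making an mRNA and less of it per cell cannot be told apart.

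The DNA upstream of the start sites is shown first. RefSeq (GRCm38.p6) gave windows for 7 of the 9 members, Plau and Mmp9 being the others. The 250 bases before each start site were searched on both strands for 2 motifs whose factors LPS is known to activate. These were the AP-1 motif TGANTCA and the NF-κB consensus GGGRNWYYCC (R for A or G, W for A or T, Y for C or T). NF-κB sites outside this pattern were not searched for. The 5 windows printed below 5′ to 3′ are those of the 3 members called higher that had one (Plaur, Mmp14, Timp1) and those of Mmp13 and F3, which had only a few counts; capitals mark AP-1 matches. They lie at chr7:24462233-24462482 (Plaur), chr14:54431348-54431597 (Mmp14), chrX:20869916-20870165 (Timp1), chr9:7272264-7272513 (Mmp13) and chr3:121723287-121723536 (F3), all on the plus strand. The Plaur window lies inside the gene span given with its counts, before the start of 1 annotated transcript.
Plaur: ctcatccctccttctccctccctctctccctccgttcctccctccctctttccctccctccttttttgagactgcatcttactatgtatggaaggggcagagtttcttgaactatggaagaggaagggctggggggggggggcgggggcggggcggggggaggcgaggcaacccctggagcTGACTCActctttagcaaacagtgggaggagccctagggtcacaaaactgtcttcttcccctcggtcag
Mmp14: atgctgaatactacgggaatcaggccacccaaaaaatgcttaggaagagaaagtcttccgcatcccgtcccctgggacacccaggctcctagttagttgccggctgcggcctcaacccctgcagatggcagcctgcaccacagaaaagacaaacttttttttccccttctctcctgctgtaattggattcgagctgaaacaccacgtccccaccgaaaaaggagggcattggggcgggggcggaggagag
Timp1: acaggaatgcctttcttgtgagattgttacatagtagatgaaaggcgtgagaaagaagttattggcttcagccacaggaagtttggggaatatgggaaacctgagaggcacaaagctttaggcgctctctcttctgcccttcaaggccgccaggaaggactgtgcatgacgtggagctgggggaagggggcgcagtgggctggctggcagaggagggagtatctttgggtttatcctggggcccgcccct
Mmp13: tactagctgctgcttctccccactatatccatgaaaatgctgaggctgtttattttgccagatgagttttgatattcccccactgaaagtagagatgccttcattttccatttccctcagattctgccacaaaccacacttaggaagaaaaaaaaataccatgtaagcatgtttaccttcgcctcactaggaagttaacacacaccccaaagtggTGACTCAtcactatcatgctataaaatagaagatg
F3: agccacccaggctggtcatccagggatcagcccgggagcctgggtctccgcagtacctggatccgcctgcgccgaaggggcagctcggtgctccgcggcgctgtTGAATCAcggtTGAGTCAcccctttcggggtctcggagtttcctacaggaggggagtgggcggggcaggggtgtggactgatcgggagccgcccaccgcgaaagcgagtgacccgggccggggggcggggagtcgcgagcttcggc

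An AP-1 match lay at -69 to -63 from the start site of Plaur and at -35 to -29 from that of Mmp13. F3 held 2 such matches, at -146 to -140 and at -135 to -129. Of the 2 windows of Mmp12, the one at chr9:7347124-7347373 held a match at -44 to -38. The windows of Mmp14, Timp1 and Timp2 held none, and the NF-κB consensus was in none of the 8 member windows. Over all 32851 windows in the table (27025 genes), 6.75% held an AP-1 match and 3.90% an NF-κB match. Whether these matches bear on the members' levels was not tested.

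No member was called lower in any library, and the number called higher was 0 at 15 min, when 0.295% of all genes tested were called higher and 0.164% lower. At 30 min Mmp14 was the 1 member called, against 1.14% of genes higher and 0.202% lower. Mmp14 and Plaur were both called at 45, 60, 75 and 90 min, when the share of all genes called higher was 3.8%, 3.43%, 4.77% and 5.79% and the share called lower 1.5%, 2.36%, 3.48% and 4.42%. At 120 min Mmp9, Mmp14, Timp1 and Plaur were called, 4 of 9, against 7.64% of 15663 genes tested higher and 6.7% lower. The median log2 ratio at 120 min was 2.67 over the 7 members whose normalized count averaged 10 or more. Over all 12164 genes with such a mean it was -0.01. The member median was the value of Mmp9, which had 7 counts at 0 min and 47 at 120 min. Timp2 (-0.13), Plau (0.16) and Mmp12 (0.62) lay below it, and Timp1 (2.69), Plaur (2.78) and Mmp14 (4.91) above it. Mmp14, at 0 counts in the unstimulated library, entered the member median against 3 counts there.

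Plau and Plaur held between 99.57% and 99.76% of the members' counts in every library. The other 7 members together therefore rested on few reads, and their counts are given throughout.

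Plau (chr14:20836662-20843388 in GRCm38.p6) encodes urokinase, the protease itself. The unstimulated library held 39717 counts, and the 7 LPS libraries, in order of time, 27901, 41574, 25825, 49964, 31900, 34593 and 46956. As a level in RPKM (counts per library total and per length, the length being the number of 58-base windows of the transcript found in no other gene), this was 133, 98.9, 130, 100, 163, 139, 143 and 129 RPKM in the same order. The RPKM level was thus already high without LPS, lowest at 15 and 45 min and highest at 60 min. The highest library depended on the scale: in normalized counts it was that at 75 min (44921), close to 60 min (44488). In normalized counts the ratio to the unstimulated library was 0.781 (0.769 to 0.793) after 15 min, 1.31 (1.29 to 1.33) after 60 min and 1.12 (1.11 to 1.14) after 120 min. None of the 7 ratios was called, although the counting intervals at all time points but 30 min excluded 1. Between the 15 and 60 min libraries the ratio was 1.68 (1.65 to 1.7), a called step. The steps from 15 to 75 min (1.69) and from 15 to 90 min (1.65) were called as well. The 15 and 45 min libraries were among the 4 with more Rn45s, and the part of this in the Plau level was not tested. The ratio at 120 min lay on either side of 1 depending on the scale, with a log2 value of 0.16 on size factors and -0.04 on total counts.

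Plaur (chr7:24460937-24475970) encodes the urokinase receptor, which holds the protease at the cell surface. From 8852 counts in the unstimulated library it passed through 7151, 11777, 12399, 26980, 20219 and 26730 counts to 64266 in the last one. In normalized counts the levels were 7573, 6805, 9643, 14004, 24023, 28472, 33936 and 52085. After the lowest value at 15 min, each library was above the one before it. Relative to the unstimulated library the 15 and 30 min libraries stood at 0.899 and 1.27, neither called. Plaur was called higher in all 5 later ones: the ratio was 1.85 (1.8 to 1.9) after 45 min, 3.17 (3.1 to 3.25) after 60 min, 3.76 (3.67 to 3.86) after 75 min, 4.48 (4.37 to 4.59) after 90 min and 6.88 (6.73 to 7.03) after 120 min. The 120 min library was also above the 60 min library, by 2.17-fold (2.14 to 2.2, exact negative binomial p = 0.00152). The step from 90 to 120 min, 1.53-fold (1.51 to 1.56), was not called (exact negative binomial p = 0.0836).

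**Figure D1:**
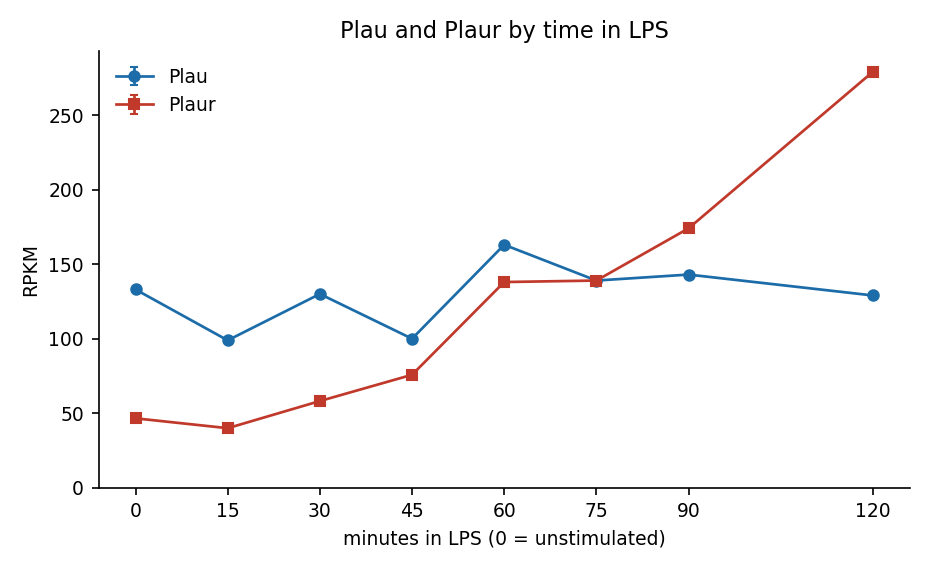
Level per length (RPKM, y axis) of Plau (circles) and Plaur (squares) against minutes in LPS, 1 library per point, with 95% Poisson intervals that are mostly smaller than the symbols. Plau stays between 98.9 and 163 RPKM, while Plaur is at 46.6 RPKM in the first library and 279 in the last, and lies above Plau at 90 and 120 min.

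The receptor and its protease could be compared within each library, where the scale drops out. The ratio of Plaur to Plau in RPKM was 0.351 (0.343 to 0.36) in the unstimulated library and then 0.404, 0.447, 0.757 and 0.852 up to 60 min. At 75 min the 2 levels were equal within counting error, with a ratio of 1 (0.982 to 1.02). The ratio then reached 1.22 at 90 min and 2.16 (2.13 to 2.18) at 120 min. Each library thus had a higher ratio than the one before, and the order of the 2 mRNAs per length was turned around between 60 and 90 min. Taking the longest annotated Plaur transcript for the length, its level was 130 RPKM at 90 min, below that of Plau (143), and 207 RPKM at 120 min, above it.

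**Figure D2:**
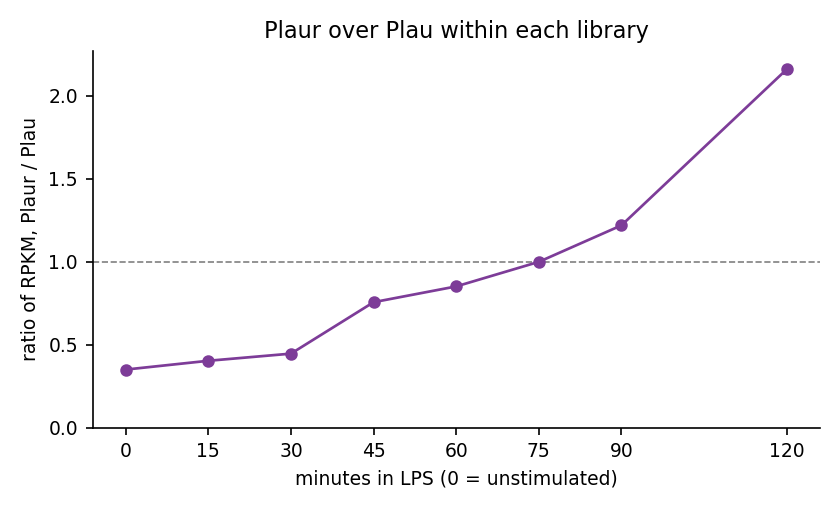
Ratio of Plaur to Plau in RPKM (y axis, linear) within each of the 8 libraries against minutes in LPS, with 95% exact intervals and a dashed line at a ratio of 1. The first library is at 0.351, that at 75 min at 1 and the last at 2.16.

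The 3 genes with the pattern most like that of Plaur, by Pearson correlation of log2 normalized counts over the 8 libraries among 10491 genes with a mean of at least 100, were Tollip (r = 0.9982), Irg1 (r = 0.9980) and Cd14 (r = 0.9975). Tollip encodes an inhibitor of Toll-like receptor signalling, Irg1 the enzyme that makes itaconate, and Cd14 a co-receptor for LPS. Their sizes of change differed widely: at 120 min Tollip was 1.61-fold, Cd14 3.66-fold and Irg1 191-fold higher. The likeness is thus one of shape and not of size, and 120 genes had their 8 libraries in exactly the same order as Plaur.

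The metalloproteinases were low throughout. Mmp14 (chr14:54431598-54442456), a membrane-bound enzyme that activates other metalloproteinases, had 0, 4, 14, 23, 23, 13, 28 and 95 counts in the 8 libraries, from unstimulated to 120 min. The unstimulated library was the lowest and the 120 min library the highest. With 0 counts at 0 min, the exact 95% lower limit of the ratio was 3.18 at 30 min and 23.9 at 120 min. Set instead against the 3 counts that 0 allows, and leaving out later counting error, the ratio was 4.47-fold at 30 min. It was then 10.1, 7.98, 7.13 and 13.9-fold, and 30-fold at 120 min. All 6 were called higher, while the 4 counts at 15 min were not (exact negative binomial p = 0.123). At 120 min its level was 0.236 RPKM (0.191 to 0.289) against 279 for Plaur. Of its 58-base windows, 11 also occur in another gene's transcripts and were left out of its length.

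Mmp9 (chr2:164940326-164955850), or gelatinase B, had 7, 12, 16, 8, 11, 8, 12 and 47 counts in the 8 libraries in order of time. The first 7 libraries held 7 to 16 counts, and the 120 min library alone stood above them. Its ratio to 0 min was 6.36 (2.86 to 16.7) and was called higher (exact negative binomial p = 0.00188). Against the 90 min library the ratio was 2.5 (1.31 to 5.18), which was not called (exact negative binomial p = 0.112). The level per length at 120 min was 0.0948 RPKM.

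Mmp12 (chr9:7344397-7360461), the macrophage elastase, had 42, 40, 55, 29, 45, 30, 36 and 68 counts. It was again highest at 120 min, where its ratio to 0 min was 1.53 (1.03 to 2.31), and it was called at no time point. Mmp13 (chr9:7272514-7283333), a collagenase, had 0, 0, 2, 2, 1, 1, 3 and 8 counts. The 8 counts at 120 min were not called (exact negative binomial p = 0.103). With 0 counts at 0 min, the exact lower limit of the Mmp13 ratio at 120 min was 1.62. Set instead against 3 counts at 0 min, and leaving out later counting error, the ratio was 2.53.

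Of the 2 inhibitors, Timp1 was called and Timp2 was not. Timp1 (chrX:20870166-20874737) had 30, 11, 23, 16, 50, 32, 38 and 204 counts in order of time. The 15 min library was the lowest, with a ratio to 0 min of 0.408 (0.184 to 0.837) that was not called (exact negative binomial p = 0.0694). From 60 to 90 min the ratio to 0 min lay between 1.73 and 1.88 and was uncalled. The 60 min library was nevertheless called higher than those at 15, 30 and 45 min, at 4.25, 2.36 and 2.46. So were the 75 and 90 min libraries. At 120 min the ratio to 0 min was 6.44 (4.38 to 9.79) and called higher. The 120 min library also stood 3.43-fold (2.41 to 4.98) above the 90 min library, a called step (exact negative binomial p = 0.000856). Timp1 lies within the span of Syn1, which had 1 count in all 8 libraries together.

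Timp2 (chr11:118301061-118355411) had 53, 74, 78, 44, 52, 46, 45 and 51 counts. Its highest library was that at 30 min in counts and that at 15 min in normalized counts, and its ratio at 120 min was 0.912 (0.608 to 1.37). Per length, Timp1 was 2.5 times (1.54 to 3.99) as high as Timp2 at 0 min, 0.657 times (0.315 to 1.25) at 15 min and 17.7 times (13 to 24.5) at 120 min. This ratio was highest in the last library and its interval there overlapped that of no other library.

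F3 (chr3:121723537-121735052) had a single count at 60 min and 5 counts at 120 min, with none in the other 6 libraries. No call was made, and 0 counts at 0 min allow a level of up to 0.0126 RPKM. Whether the 0 and 120 min libraries differ was not detectable at this depth (exact negative binomial p = 0.421).

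**Figure D3:**
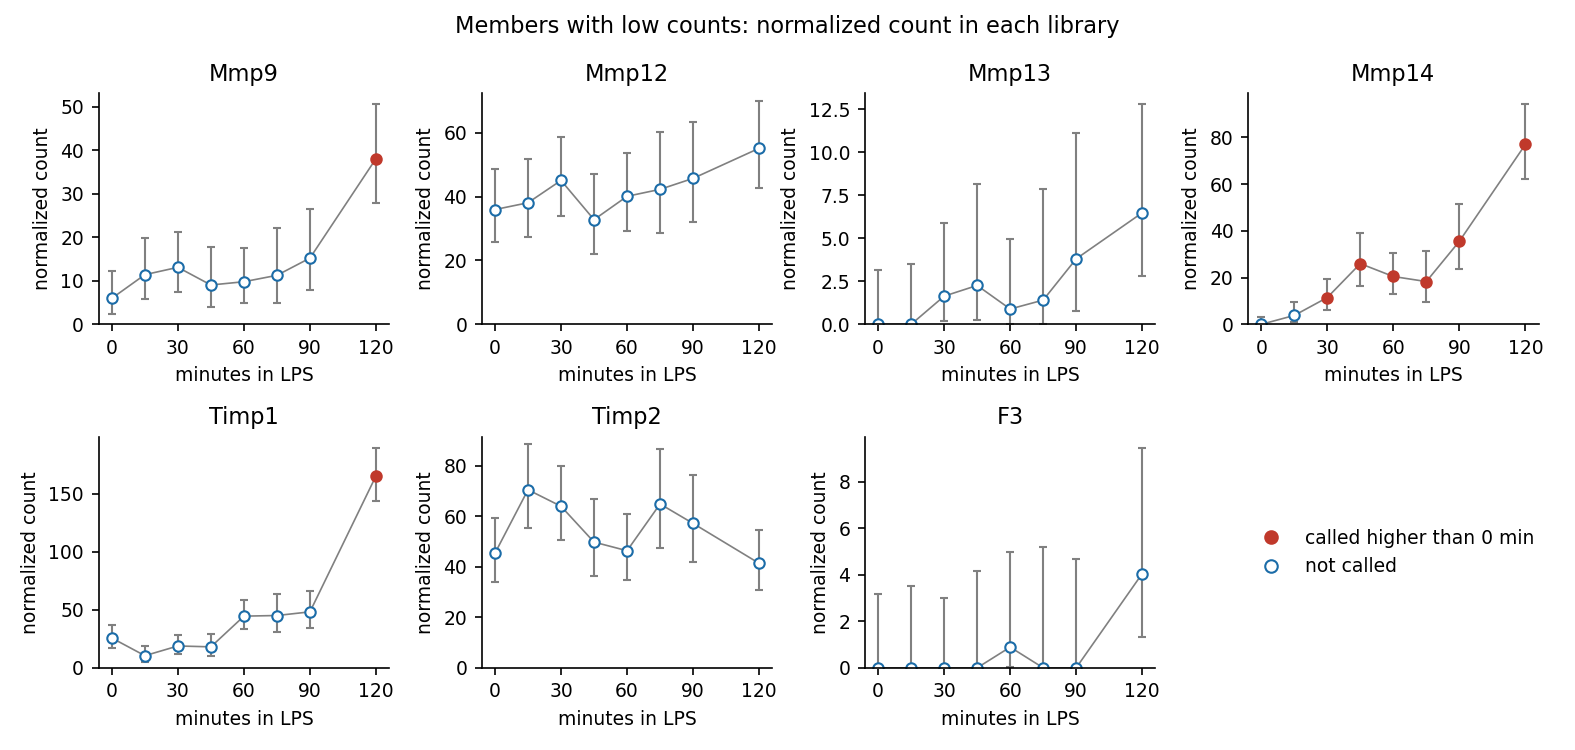
Normalized counts (y axes, each panel with its own scale starting at 0) of the 7 members other than Plau and Plaur against minutes in LPS, with 95% Poisson intervals. Filled points were called higher than at 0 min: Mmp14 from 30 min on, and Mmp9 and Timp1 at 120 min. Open points were not called.

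Ordered by level per length, the unstimulated cells had Plau (133 RPKM) and Plaur (46.6) far above Timp1 (0.277, 0.187 to 0.396), Timp2 (0.111, 0.083 to 0.145), Mmp12 (0.0903, 0.0651 to 0.122) and Mmp9 (0.0171, 0.00689 to 0.0353), with Mmp13, Mmp14 and F3 at 0. Timp2 and Mmp12 could not be told apart within counting error. At 120 min the order was Plaur (279), Plau (129), Timp1 (1.55), Mmp14 (0.236), Mmp12 (0.12), Mmp9 (0.0948), Timp2 (0.0878), Mmp13 (0.0192) and F3 (0.0173). The intervals of Mmp12, Mmp9 and Timp2 overlapped there, as did those of Mmp13 and F3. Mmp14 thus passed from no counts to the highest of the 4 metalloproteinases.

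All 4 members that were called had the same pattern over the 8 libraries, a single maximum at 120 min, the last time point (7.34% of genes with a count had, like them, a maximum at 60 min or later as their first extremum). The other 5 had no maximum or minimum by this rule.

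The rest of the plasminogen system was read from a list of 13 genes, of which 3 (Plg, the proenzyme plasminogen itself, Serpine2 and F12) had no count in any library. Plat and Serpinb2 were called higher at 60 and at 120 min, and none was called lower. Plat, the tissue-type activator, had 4 counts without LPS, 157 after 60 min and 186 after 120 min, ratios of 40.9 (15.6 to 152) and 44.1 (16.9 to 163). Its level of 0.474 RPKM at 120 min was far below the 129 RPKM of Plau. Serpinb2, a serine protease inhibitor, had no counts up to 30 min, 10 at 60 min and 45 at 120 min. The exact lower limit of its ratio at 120 min was 11.1. Set instead against 3 counts in the unstimulated library, and leaving out later counting error, the ratio was 14.2. The mRNAs of proteins that can bind plasminogen at the cell surface were not called. At 120 min the ratio was 1.15 for Anxa2, 1.11 for S100a10, 0.957 for Eno1 and 0.902 for Plgrkt. Their counts in that library were 59498, 52704, 33031 and 2290, in the same order. Lrp1, a large endocytic receptor, was called higher at 45 min, at 1.67 (1.65 to 1.7), and was at 1.42 (1.41 to 1.44), uncalled, at 120 min. The median log2 ratio over the 6 genes of this list with a mean of at least 10 was 0.17 at 120 min.

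Of the 19 other metalloproteinases in the table, 7 had no count in any library and 1 was called at 120 min, in the lower direction. This was Mmp19, with 491 counts without LPS, 354 after 60 min and 183 after 120 min and a final ratio of 0.353 (0.296 to 0.419). It was higher per length than any of the 4 member metalloproteinases at 0 min, at 1.1 RPKM. At 120 min Mmp19 was at 0.338 RPKM (0.291 to 0.391), still above Mmp14 at 0.236 (0.191 to 0.289). Among 6 further inhibitors and activators, Furin, a protease that activates Mmp14 and other proenzymes, was called higher at 120 min with a ratio of 2.67 (2.61 to 2.74), and the others were not called. The uncalled Bsg, an inducer of metalloproteinases, was at 0.978. Timp3 had no count in any library and Timp4 had 1, at 30 min.

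Around F3, 17 genes of the tissue factor and protein C pathways were counted, of which 2 were called higher at 120 min and none lower. F10, the clotting factor that the complex of tissue factor and factor VII activates, had 43 counts without LPS and 131 after 120 min, a ratio of 2.89 (2.03 to 4.17). Procr, the receptor for protein C, was at 3 (2.72 to 3.31). F7, which binds tissue factor, had 24 counts at 120 min and a ratio of 2.07 (0.975 to 4.67), and was not called.

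Among 11 adamalysins, which are related metalloproteinases, 4 were called higher at 120 min and none lower. The ratios were 1.64 for Adam8, 1.81 for Adam17 (the enzyme that sheds Tnf), 3.04 (2.35 to 3.97) for Adamts1 and 7.08 (4.48 to 11.8) for Adamts4, and of these Adamts1 was also called at 60 min. Adam10 was called higher at 45 min alone, at 1.83. Adam8 and Adam17 were not called on total counts, on the spike-in transcripts, with the edgeR dispersion, with an adjusted p or at a log2 limit of 1. Of 8 matrix proteins 2 were called higher at 120 min, Spp1 (osteopontin) at 2.58 and the laminin chain Lamc1 at 2.77, and none lower. Read together, of the 74 genes on the 6 lists 52 were tested at 120 min. Of these, 11 were called higher and 1 lower, beside 7.64% and 6.7% of all genes tested. At 60 min 52 were tested as well, and 3 were called higher and 0 lower, beside 3.43% and 2.36%. Genes tested at 120 min were 9 of 13 in the plasminogen list, 11 of 19 other metalloproteinases and 4 of 6 inhibitors and activators. They were 12 of 17 around F3, 10 of 11 adamalysins and 6 of 8 matrix proteins.

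**Figure D4:**
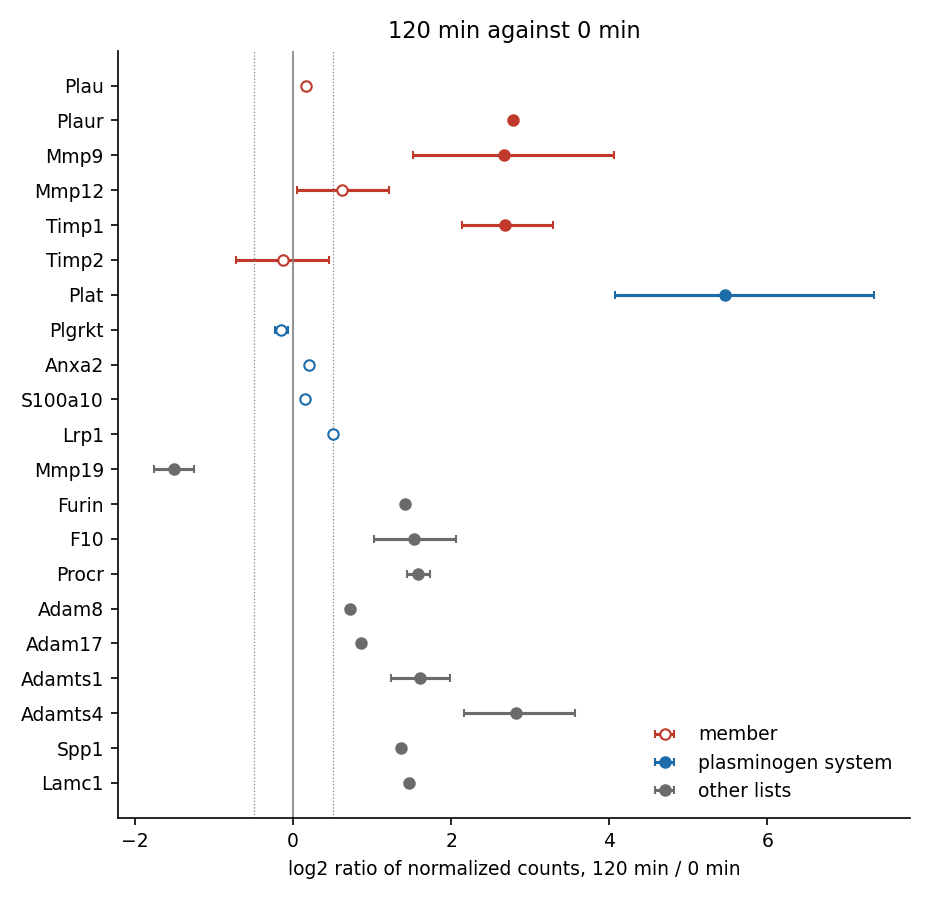
Log2 ratio of normalized counts at 120 min over 0 min (x axis) for the 6 members with counts at 0 min, 5 genes of the plasminogen system and the 10 genes called in the other lists, with 95% exact intervals and dotted lines at ±0.5. Filled points were called. Plaur (2.78), Mmp9 (2.67) and Timp1 (2.69) lie close together, and Mmp19 (-1.50) is the one gene called lower.

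Some marker genes of other cells also differed at 120 min, and their part in the members' values was not tested. In the osteoclast list Dcstamp was called higher, at 2.33, and in the endothelial list Kdr, with 7 counts at 0 min and 26 at 120 min. The macrophage list had Cd14 higher, at 3.66, and Fcgr1 lower, at 0.381.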

How the data were processed

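Total RNA was purified from RAW264.7 cells (the labels give the RNA fraction as cytoplasmic), depleted of ribosomal RNA with Ribo-Zero and made into libraries with the NEBNext Ultra Directional kit. The authors aligned 58-base reads with Bowtie (version not given in the sources used here) to mm10 RefSeq transcripts, allowing 2 mismatches, and discarded reads matching more than 1 gene symbol; the deposited values are raw counts per gene, and whether strand was used is not stated. The submitters' processing notes name CASAVA 1.8.2 and DESeq 1.10.1. The table was read as deposited, with 2 spike-in transcripts (at most 0.0316% of counts) left out.

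Size factors were medians of ratios. Dispersion was fitted across all 8 libraries as if they were replicates (0.0287 + 0.853/mean, the scheme of the authors' DESeq), so it includes change over time, and each pair of libraries was compared by a two-sided exact negative binomial test coded in Python 3.11.15 (scipy 1.17.1) and tested on simulated data. A quasi-likelihood fit that treats every time point as a separate group leaves no residual degrees of freedom; TMM factors and an alternative dispersion trend came from edgeR 4.0.16. Ratios carry conditional binomial and RPKM (per total counts, without spike-ins, and per 58-base window unique to the gene among GENCODE transcripts) Poisson intervals; a count of 0 was read as up to 3 counts. Libraries of 100229997 to 159036125 counts set the precision, and reads without molecular identifiers are not independent molecules.

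A pattern was read from the libraries that are local maxima or minima in the calls between all 28 pairs. The members, the lists of related genes and markers, and the rules for genes named (all members; genes called at 120 min in each list; the 3 genes most like a member with a mean of at least 100) were chosen with earlier results of these data known. A few further genes of the lists (Bsg, F7, Timp3, Timp4, Anxa2, S100a10, Eno1, Plgrkt, Lrp1, Plg, Serpine2, F12, Adam10) and called markers were named after their values were seen. 1 further gene of the plasminogen system was left out of its list and is not reported here. The alternatives tried were other scales, dispersions, thresholds, filters, lengths and sets of libraries.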

Additional observations from a re-analysis of the deposited data

How the results depend on the processing

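Of 234 values recomputed under 23 alternatives, 217 kept their direction and their side of the threshold, or stayed within 1.5 times for counts and within counting error for levels. Some of these could not have changed. Stricter thresholds cannot add a call, and Mmp9, Mmp13, Timp1, Timp2, Plau and F3 already used their longest transcript. Without the 120 min library 2 members (Mmp14 and Plaur) rather than 4 had a single maximum. Mmp9 and Timp1 were called against 0 min in that library alone, and leaving out any other library gave 4. Counts of members called at 60 and 120 min did not move by over 1.5 times under any scale, dispersion, adjusted p, log2 limit of 1 or filter, and Plaur, Mmp14, Mmp9 and Timp1 stayed called at 120 min in all of them. The number of list genes called higher at 120 min was 9 to 11, Adam8, Adam17 and Serpinb2 being those that were lost, except that counting error alone added Lrp1. Plau at 120 min turned from a log2 ratio of 0.16 to -0.04 on total counts and -0.03 on total counts without Rn45s, uncalled in each. Against size factors these 2 scales moved all log2 ratios at 120 min by -0.20 and -0.19, and the spike-in scale, chosen after seeing the data, by -0.11 at 120 min and -0.30 at 60 min. With counting error alone Mmp12 was also called at 120 min, Mmp13 was called so and with the edgeR dispersion, and Timp1 (a minimum before 60 min, then a maximum) and Timp2 changed their pattern. With normalized counts in place of log2 values none of the 3 genes most like Plaur was named again, and a Spearman coefficient tied 120 genes with it. No paired analysis was possible because each time point has 1 library. Members under about 10 counts (Mmp13, F3) are limited by depth.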
